A study of Mus musculus with 4 samples.

Results

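Translation initiation factors are the proteins that bring the initiator tRNA, the small ribosomal subunit and an mRNA together at a start codon. The genes described here are those whose symbol begins with Eif1 to Eif6, leaving out the eIF2 kinase genes (Eif2ak) and the gamma subunit genes of eIF2 (Eif2s3). Of 54 genes with such a symbol 6 were left out, so 48 of the 13792 genes in the files were described. They comprised 5 genes named for eIF1, 9 for eIF2, 14 for eIF3, 15 for eIF4, 4 for eIF5 and 1 for eIF6. The rule uses names only and no measured value, but it was chosen with earlier results of these data known.

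RNA was measured in 2 libraries of mouse B cells. Naive B cells of the C57BL/6 strain were infected with a retrovirus, either RVKM-Ascl2, which carries the basic helix-loop-helix transcription factor gene Ascl2, or RVKM-Empty, which carries no insert. Both cultures received anti-IgM, which mimics antigen at the B cell receptor, plus anti-CD40, which mimics the help of T cells. No source used here gives the age of the mice, the time in culture or the share of infected cells. There was 1 library per group, so no value below has a replicate error, no test could be made, and no difference has a replicate check. The series also lists 2 chromatin samples (germinal centre B cells, Ascl2 ChIP and input), not analysed here.

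In general outline, eIF1, eIF1A, eIF3 and eIF5 assemble on the small subunit together with eIF2, which carries the initiator tRNA and GTP. The eIF4 proteins bind the 5′ cap, unwind the mRNA and recruit that complex. After start codon recognition eIF2 leaves with GDP and is recharged by eIF2B, while eIF5B joins the large subunit. When a B cell is activated it enlarges and makes more protein, and growth signals through mTORC1 release the cap-binding protein eIF4E from its inhibitors.

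Each file gave 1 signal value per gene, read here as an abundance scaled for sequencing depth. The values summed to 763932 in the RVKM-Ascl2 library and 750692 in the RVKM-Empty library. The number of reads behind them is not known, and intervals for counting error were therefore not computed. Ascl2 itself was 29.4 in the RVKM-Ascl2 library and 0.0809 in the RVKM-Empty library. All 7 B cell markers examined (Cd79a, Cd79b, Ms4a1, Pax5, Cd22, Blk and Ebf1) had a value, summing to 1978 with Ascl2 and 2294 with the empty vector. Of these 7, 3 were higher with Ascl2 (Ms4a1, Ebf1 and Blk). Of markers of other cells, 6 of 8 myeloid genes had a value (sums of 50.1 with Ascl2 and 45.2 with the empty vector, with 5 of the 6 higher with Ascl2), 2 of 8 T cell genes (37.3 and 38.3), 2 of 4 erythroid genes (1.75 and 2.03) and 1 of 4 NK cell genes (0.874 and 0.455). Among the myeloid genes, Fcer1g was 9.83 with Ascl2 and 5.71 with the empty vector (log2 ratio 0.69, taken with 1 added to each value), Lyz2 was 21.4 with Ascl2 and 16.0 with the empty vector, and Cd68 was 10.8 with Ascl2 and 16.2 with the empty vector. No marker with a value was listed at 0, and the part of such cells in the results below was not tested. In bulk RNA, fewer cells of a type and less RNA per cell cannot be told apart.

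Most initiation factor genes differed by less than 1.5-fold between the libraries. Differences are given as the log2 ratio of the RVKM-Ascl2 value plus 1 over the RVKM-Empty value plus 1. Of the 48 genes, 2 were at least 1.5-fold lower with Ascl2 (Eif2b2 and Eif6) and none was at least 1.5-fold higher. Among the 12283 genes that reached a value of 1 in at least 1 library, 4.31% were at least 1.5-fold lower and 5.01% at least 1.5-fold higher (530 and 615 genes, or 365 and 801 under the rescaling without immunoglobulin genes described below, where Eif2b2 alone of the 48 stayed past 1.5-fold). No initiation factor gene was past 2-fold in either direction, which 0.716% of all genes were downward and 1.53% upward. All 48 genes passed the filter at 1. At a filter of 5, which 46 of the 48 passed with the same 2 genes lower, 3.84% of 9196 genes were at least 1.5-fold lower and 4.12% at least 1.5-fold higher.

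Between the libraries, 41 of the 48 genes (85.4%) differed by less than 0.32 on the log2 scale, against 70.1% of the 12283 genes and 72.3% of those that reached 5. These sets differ in level, with medians in the RVKM-Empty library of 98.5, 12.8 and 20.2 in that order. No share at matched level was computed, so the part of level in this difference was not tested. Past the limit of 0.32, 4 genes were lower (Eif2b2, Eif6, Eif5a and Eif3g), as were 15.7% of all genes, and 3 were higher (Eif4a2, Eif3a and Eif1), as were 14.2% of all genes. The log2 ratio was below 0 for 28 and above 0 for 20 of them, and 51.6% of all genes lay below 0. Their median log2 ratio was −0.045 and that of all genes −0.012. The members' median thus lay 0.032 below that of all genes. When the RVKM-Ascl2 values were rescaled to equal sums without immunoglobulin genes and Pcdh15, the members' median became 0.046 and that of all genes 0.069, a distance of 0.023. With the trend of the ratio with level removed, the members' median lay 0.014 above that of all genes, and no direction is read from so small a distance. Pcdh15, a protocadherin gene, alone was 26003 with Ascl2 and 481 with the empty vector. That rescaling moved every gene up by 0.09 on the log2 scale before the pseudocount. Summed over the 48 genes, initiation factors took 0.848% of the RVKM-Ascl2 library and 0.883% of the RVKM-Empty library.

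**Figure D1:**
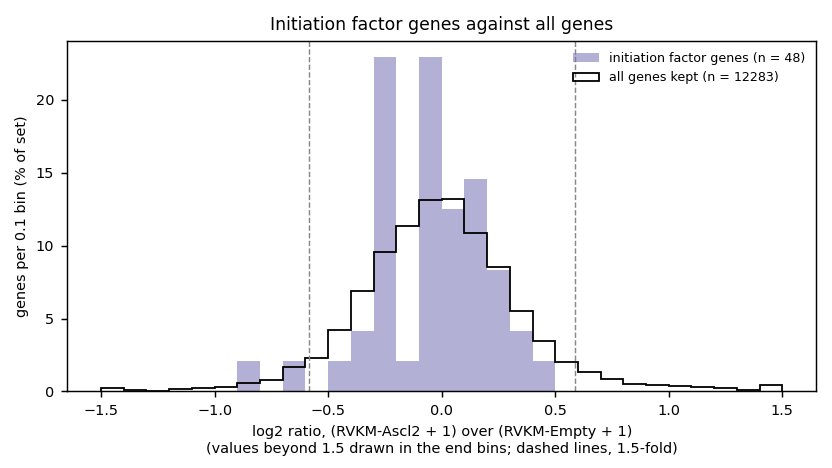
Distribution of the log2 ratio (RVKM-Ascl2 over RVKM-Empty, pseudocount 1) in bins of 0.1, as a percentage of the 48 initiation factor genes (filled) and of the 12283 genes kept (line). Of the 48 genes, 2 lie beyond the lower dashed line at 1.5-fold and none beyond the upper one.

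Promoter sequence is shown for 4 genes, the members with the lowest and the highest ratio (Eif2b2 and Eif4a2) and 2 eIF3 subunit genes on opposite sides of 0 that both hold the E-box CACGTG (Eif3a and Eif3k). CACGTG is the element bound by Myc with its partner Max, and Myc is known to raise the output of the translation machinery. The windows run from 250 bases before to 50 bases after a listed RefSeq start on GRCm38.p6. For Eif3k, and for some members not shown, that start is not the outermost one of the annotated gene. Sequences read 5′ to 3′ on the strand of the gene, with CACGTG and CAGCTG in capitals where they occur. The coordinates are chr12:85219231-85219530 (plus strand) for Eif2b2, chr16:23107218-23107517 (plus) for Eif4a2, chr19:60790644-60790943 (minus) for Eif3a and chr7:28981839-28982138 (minus) for Eif3k.
Eif2b2: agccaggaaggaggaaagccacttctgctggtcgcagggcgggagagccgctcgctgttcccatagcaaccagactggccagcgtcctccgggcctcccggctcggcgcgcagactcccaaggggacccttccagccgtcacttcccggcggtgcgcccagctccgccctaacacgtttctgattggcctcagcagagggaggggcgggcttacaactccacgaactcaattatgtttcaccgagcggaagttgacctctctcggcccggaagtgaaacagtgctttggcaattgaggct
Eif4a2: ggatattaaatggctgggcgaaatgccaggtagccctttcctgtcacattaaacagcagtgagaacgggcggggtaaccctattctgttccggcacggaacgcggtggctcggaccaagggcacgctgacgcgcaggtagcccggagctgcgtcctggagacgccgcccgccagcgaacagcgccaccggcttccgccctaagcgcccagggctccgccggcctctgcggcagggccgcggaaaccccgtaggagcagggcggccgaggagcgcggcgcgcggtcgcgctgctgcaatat
Eif3a: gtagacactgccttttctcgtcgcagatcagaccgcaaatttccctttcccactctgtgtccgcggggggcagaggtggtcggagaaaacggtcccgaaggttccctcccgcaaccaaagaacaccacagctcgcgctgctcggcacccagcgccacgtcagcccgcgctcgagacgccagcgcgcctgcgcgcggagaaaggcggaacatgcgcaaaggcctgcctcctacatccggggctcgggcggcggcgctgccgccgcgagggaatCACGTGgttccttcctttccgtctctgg
Eif3k: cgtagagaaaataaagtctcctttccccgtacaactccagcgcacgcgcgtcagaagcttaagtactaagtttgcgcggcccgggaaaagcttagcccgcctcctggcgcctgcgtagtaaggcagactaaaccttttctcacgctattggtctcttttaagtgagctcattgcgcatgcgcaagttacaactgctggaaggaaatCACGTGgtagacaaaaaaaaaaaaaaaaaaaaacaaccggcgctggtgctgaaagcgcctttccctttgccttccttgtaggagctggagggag

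A window was given for 37 of the 48 genes, and where a gene had several the first listed was used. CACGTG (a palindrome, so both strands read alike) was in 8 of 37 windows (21.6%), against 10.7% of 8629 windows of the genes kept and 7.24% of all 27025. The 8 were those of Eif1b, Eif3a, Eif3f, Eif3k, Eif4a1, Eif4g1, Eif4h and Eif5a2, of which 4 had a log2 ratio below 0 and 4 above 0, with a median of −0.0023. For the 29 genes without it the median was −0.052. CAGCTG, an E-box with a GC core of the kind bound by Ascl2 and related factors, was in 1 of 37 windows (2.70%), that of Eif5b, against 14.1% of windows of the genes kept and 16.1% of all. The wider E-box CANNTG, which includes both, was in 56.8% of the members' windows and 62.6% of those of the genes kept. A match of letters is a description and not a binding site, and Myc itself was 75.7 with Ascl2 and 84.3 with the empty vector.

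The factors eIF1 and eIF1A act in scanning and in the choice of the start codon. Of the 5 genes named for eIF1, which include Eif1ad, 3 lay above 0 (against 48.4% of all genes kept) and 2 below. Their median log2 ratio was 0.21, above 0 under each of the 9 alternatives tried. These alternatives include changes of filter, which leave the ratio of a single gene as it was. They also include changes of pseudocount, which cannot change the sign of that ratio. Eif1 encodes the factor that holds the scanning complex open until the start codon is met, and it had the highest value of all 48 genes in both libraries. It was 820 in the RVKM-Ascl2 library and 654 in the RVKM-Empty library (log2 ratio 0.33). Its paralog Eif1b was 42.7 with Ascl2 and 44.7 with the empty vector, so the ratio of Eif1 to Eif1b was 19.2 with Ascl2 and 14.6 with the empty vector.

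For eIF1A, the companion factor of eIF1, the near-identical copies Eif1a and Eif1ax both had higher values with Ascl2. Eif1a was 50.2 with Ascl2 and 40.6 with the empty vector, and Eif1ax was 50.4 with Ascl2 and 43.4 with the empty vector. How reads were split between these copies is uncertain. Eif1ad, which encodes a protein with an eIF1A-like domain, was 19.2 with Ascl2 and 22.9 with the empty vector (−0.24), and its annotated span touches that of Banf1. None of the 5 genes reached 1.5-fold.

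**Figure D2:**
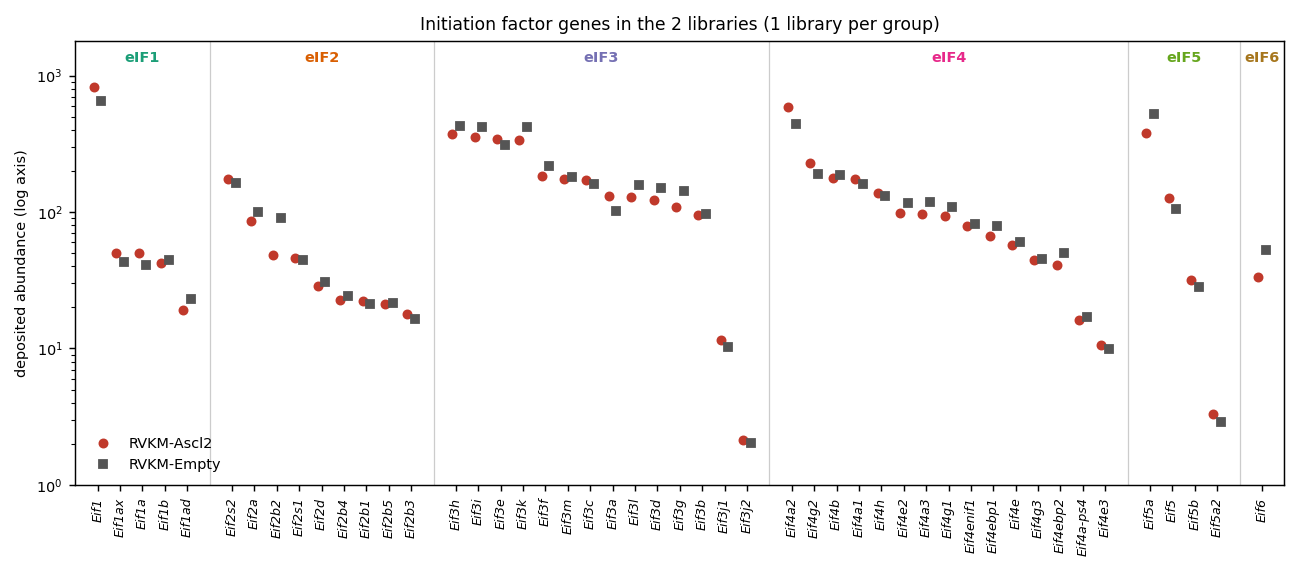
Deposited abundance (log axis) of each of the 48 genes in the RVKM-Ascl2 library (circles) and the RVKM-Empty library (squares), grouped by factor and ordered by the RVKM-Ascl2 value. The 2 marks of a gene lie close together for most genes, from Eif1 (820 and 654) down to Eif3j2 (2.12 and 2.02), and stand furthest apart for Eif2b2 (48.8 and 90.8).

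The alpha and beta subunit genes of eIF2 lay close to no difference, while those of the gamma subunit were left out by the rule. Of the genes of its exchange factor eIF2B a single one stood apart. Eif2s1, the alpha subunit whose phosphorylation slows initiation under stress, was 46.3 with Ascl2 and 44.7 with the empty vector. The beta subunit gene Eif2s2 was 174 with Ascl2 and 162 with the empty vector. Their log2 ratios were 0.049 and 0.10.

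Among the 5 subunit genes of eIF2B, which recharges eIF2 with GTP, Eif2b2 (the beta subunit, in the regulatory core; ENSMUSG00000004788, chr12:85219481-85226628, GRCm38) was 48.8 with Ascl2 and 90.8 with the empty vector. Its log2 ratio of −0.88 was the lowest of the 48 genes, and 135 of the 12283 genes (1.10%) lay lower. It stayed past 1.5-fold under all 9 alternatives, between −0.91 and −0.75, though the changes of filter could not move it. The other 4 subunit genes had log2 ratios between −0.086 and 0.11. The catalytic subunit gene Eif2b5 was 21.1 with Ascl2 and 21.7 with the empty vector, and its partner Eif2b3 was 17.7 with Ascl2 and 16.4 with the empty vector. For the remaining regulatory subunits, Eif2b1 was 22.2 with Ascl2 and 21.1 with the empty vector, and Eif2b4 was 22.7 with Ascl2 and 24.2 with the empty vector. In the RVKM-Ascl2 library Eif2b2 was still the highest of the 5 in abundance, as in the RVKM-Empty library.

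Eif2a and Eif2d encode proteins that can deliver initiator tRNA without eIF2. Eif2a was 85.4 with Ascl2 and 100.5 with the empty vector (−0.23), and Eif2d was 28.8 with Ascl2 and 30.9 with the empty vector (−0.098). Both ratios lay below 0 under all 9 alternatives, of which the changes of filter and pseudocount could not alter the sign.

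The eIF3 genes encode the largest initiation factor, a multi-subunit scaffold on the small ribosomal subunit. Of the 12 subunit genes other than eIF3j, 9 had a log2 ratio below 0 (against 51.6% of all genes kept) and 3 above 0, with a median of −0.21, and none reached 1.5-fold. Over all 14 eIF3 genes the median was −0.11 and stayed below 0 under all 9 alternatives (−0.18 to −0.019). The summed abundance of the 12 was 2534 with Ascl2 and 2786 with the empty vector, 0.91 times as high.

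The lowest ratio of the complex was that of Eif3g, an RNA-binding subunit, at 109 with Ascl2 and 143 with the empty vector (−0.38). Eif3k was 337 with Ascl2 and 420 with the empty vector (−0.32). The gene of the cap-binding subunit, Eif3d, was 122 with Ascl2 and 151 with the empty vector (−0.30). These 3 lay together with Eif3l, which was 130 with Ascl2 and 159 with the empty vector (−0.29). Eif3i was 357 with Ascl2 and 420 with the empty vector, and Eif3f was 184 with Ascl2 and 216 with the empty vector. Eif3h was 376 with Ascl2 and 427 with the empty vector. These subunits kept a ratio below 0 under all 9 alternatives, though the changes of filter and pseudocount could not alter its sign.

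The other subunits lay near 0 or above it. Eif3m was 176 with Ascl2 and 181 with the empty vector, and Eif3b was 95.5 with Ascl2 and 96.5 with the empty vector. Above 0 lay Eif3a, the scaffold of the complex, at 132 with Ascl2 and 102 with the empty vector (0.37), along with Eif3c and Eif3e. Eif3c was 172 with Ascl2 and 160 with the empty vector, and Eif3e was 344 with Ascl2 and 311 with the empty vector. The 3 ratios above 0 stayed so under all 9 alternatives, while those of Eif3m and Eif3b changed sign under some. Only the rescalings and trend removals could change a sign.

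Read as abundances per length, the 12 subunit genes spanned 3.94-fold between the lowest and the highest in the RVKM-Ascl2 library and 4.42-fold in the RVKM-Empty library. Eif3h had the highest level and Eif3b the lowest in both. The level of Eif3k was 2.55 times that of Eif3a with Ascl2 and 4.10 times with the empty vector. Eif3j, a loosely bound subunit, comes from near-identical mouse genes, so how reads were split is uncertain. Eif3j1 was 11.6 with Ascl2 and 10.2 with the empty vector, and Eif3j2 was 2.12 with Ascl2 and 2.02 with the empty vector.

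**Figure D3:**
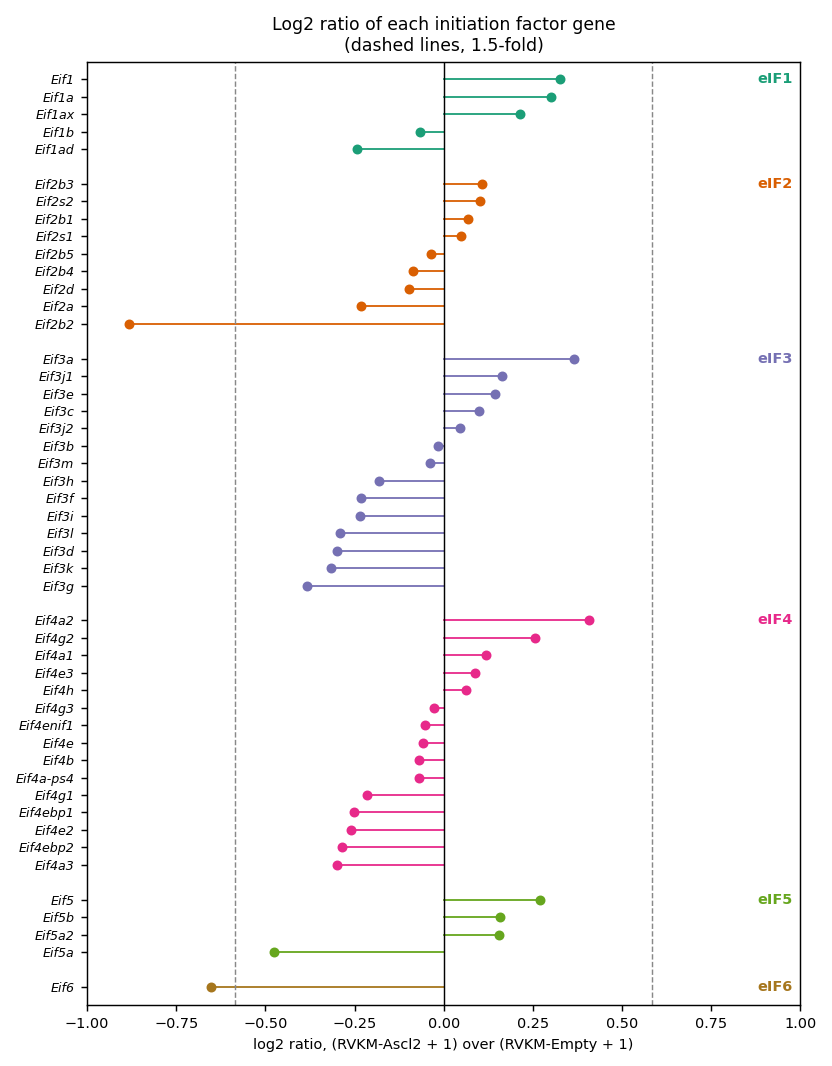
Log2 ratio of each of the 48 genes, RVKM-Ascl2 over RVKM-Empty with a pseudocount of 1, grouped by factor. Only Eif2b2 (−0.88) and Eif6 (−0.65) lie past the dashed 1.5-fold lines, and the highest ratio is that of Eif4a2 (0.41).

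Most eIF4 genes act at the cap, and the 15 named for eIF4 also include Eif4a3, of the exon junction complex, and a pseudogene. Of these 15, 10 had a log2 ratio below 0 (against 51.6% of all genes kept) and 5 above 0, and none reached 1.5-fold. Their median was −0.059. It was 0.032 under the rescaling without immunoglobulin genes, where that of all genes was 0.069, and 0.016 with the trend with level removed. Their summed abundance was 1905 with Ascl2 and 1799 with the empty vector, so the sum and the median lay on opposite sides of no difference.

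Eif4a2 (ENSMUSG00000022884, chr16:23107468-23114132), one of the genes of the RNA helicase eIF4A, had the highest ratio of the 48 genes, at 585 with Ascl2 and 441 with the empty vector (0.41). Of all genes kept, 1214 lay higher. The other helicase gene of the initiation complex, Eif4a1, was 175 with Ascl2 and 161 with the empty vector (0.12), and the ratio of Eif4a2 to Eif4a1 was 3.35 with Ascl2 and 2.74 with the empty vector. Eif4a2, Eif4a1, Eif3a, Eif5 and Eif4g2, whose ratios lay above 0, and Eif4g1, whose ratio lay below, hold small nucleolar RNA genes within their span on GRCm38. The sources used here do not say how reads from these were counted. Eif4a3, a related helicase of the exon junction complex on spliced mRNA, was 96.7 with Ascl2 and 119 with the empty vector (−0.30). The pseudogene Eif4a-ps4, which shares sequence with eIF4A genes, was 16.3 with Ascl2 and 17.1 with the empty vector. The eIF4A cofactors differed little. Eif4b was 178 with Ascl2 and 187 with the empty vector, and Eif4h was 137 with Ascl2 and 131 with the empty vector.

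Eif4e, the cap-binding subunit that is limiting in many cells, was 57.6 with Ascl2 and 60.1 with the empty vector (−0.059). Its homolog Eif4e2, which binds the cap without recruiting eIF4G and can repress translation, was 97.5 with Ascl2 and 117 with the empty vector (−0.26). Eif4e3 was 10.6 with Ascl2 and 9.90 with the empty vector. The eIF4E-binding proteins, which keep eIF4E from eIF4G until mTORC1 phosphorylates them, both had lower values with Ascl2. Eif4ebp1 was 66.2 with Ascl2 and 78.9 with the empty vector (−0.25), and Eif4ebp2 was 41.0 with Ascl2 and 50.1 with the empty vector (−0.28). The level of Eif4ebp1 was 1.15 times that of Eif4e with Ascl2 and 1.31 times with the empty vector. Eif4enif1, the carrier of eIF4E into the nucleus, was 78.9 with Ascl2 and 81.8 with the empty vector.

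The eIF4G scaffolds, which join eIF4E, eIF4A and eIF3, lay on both sides of 0. Eif4g1 was 93.3 with Ascl2 and 109 with the empty vector (−0.22), whereas Eif4g2, a relative that lacks the eIF4E-binding part, was 228 with Ascl2 and 190 with the empty vector (0.26). Eif4g3 was 44.5 with Ascl2 and 45.4 with the empty vector. The ratio of Eif4g2 to Eif4g1 was 2.44 with Ascl2 and 1.75 with the empty vector. Neither gene's log2 ratio changed sign under the 9 alternatives, of which only the rescalings and trend removals could change it.

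Of the 4 genes named for eIF5, 3 lay above 0 (against 48.4% of all genes kept) and 1 below. Eif5, which makes eIF2 hydrolyse its GTP at the start codon, was 127 with Ascl2 and 105 with the empty vector (0.27). Eif5b, the factor for subunit joining, was 31.5 with Ascl2 and 28.2 with the empty vector (0.16). Eif5a, a hypusine-carrying protein that helps ribosomes through difficult stretches and at termination, was 376 with Ascl2 and 523 with the empty vector (−0.47). That was the third lowest ratio of the 48 genes, with 884 genes lower among all genes kept, and it did not reach 1.5-fold. Its paralog Eif5a2 was 3.33 with Ascl2 and 2.89 with the empty vector, far below Eif5a in both libraries.

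Eif6 (ENSMUSG00000027613, chr2:155819837-155826925) keeps the large ribosomal subunit from joining too early and takes part in making it. It was 33.2 with Ascl2 and 52.8 with the empty vector (−0.65), with 371 of the 12283 genes lower (3.02%). The log2 ratio was between −0.68 and −0.52 over the 9 alternatives and past 1.5-fold in 6 of them, but not in the rescaling without immunoglobulin genes or with the trend of level or of genomic span removed. The 6 include the changes of filter, which could not move the ratio.

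Genes around the initiation factors were described in 9 lists. Beside the counts by direction in these lists, 51.6% of all genes kept lay below 0 and 48.4% above, with a median of −0.012. The list of eIF2 alpha kinases and phosphatase subunits also holds regulators such as Nck1 and Impact, so it pools genes of opposite action. It had 7 of 9 genes above 0 and a median of 0.23, and none reached 1.5-fold. Ppp1r15a, the stress-induced phosphatase subunit, was 43.5 with Ascl2 and 53.7 with the empty vector (−0.30), while the constitutive subunit gene Ppp1r15b was 34.1 with Ascl2 and 27.6 with the empty vector (0.29). Nck1, an adaptor, had a ratio of 0.32 and Impact, an inhibitor of the kinase Gcn2, of 0.31.

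Among 15 genes of the ATF4 pathway, which acts when eIF2 alpha is phosphorylated, 7 lay below 0 and 8 above, with a median just above 0 (0.003) but a mean below it (−0.075). Cebpb was the one gene of the list past 1.5-fold, at 7.27 with Ascl2 and 11.7 with the empty vector (−0.62). Ddit3, which encodes the stress factor CHOP, was 62.7 with Ascl2 and 42.0 with the empty vector (0.57). Sesn2 was 22.9 with Ascl2 and 32.8 with the empty vector, and Shmt2, of one-carbon metabolism, was 159 with Ascl2 and 213 with the empty vector.

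In the list of mTORC1 and MNK control, 10 of 15 genes lay below 0, and the median was −0.030, or 0.053 under the rescaling without immunoglobulin genes, which raises all genes alike (their median to 0.069). Akt1s1, which encodes the mTORC1 inhibitor PRAS40, was the one gene past 1.5-fold and was past 2-fold as well, at 14.4 with Ascl2 and 31.7 with the empty vector (−1.09). Tsc1, part of an inhibitor of mTORC1, had a ratio of 0.27, Rheb, which activates mTORC1, of −0.24 and Mknk2, which encodes a kinase of eIF4E, of −0.24. Of 14 other initiation cofactors, which include Eif1ad, 7 lay below 0. Dohh, which completes the hypusine of eIF5A, was past 1.5-fold at 16.1 with Ascl2 and 25.5 with the empty vector (−0.64). Denr, which works in reinitiation, was 43.9 with Ascl2 and 58.3 with the empty vector (−0.40), and Igf2bp3 had a ratio of −0.45. Mcts2, a copy of Mcts1 whose reads may be split with it, had a ratio of 0.45.

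For the remaining lists of translation genes, the genes named are among those with the largest absolute ratios of their lists. Of 11 elongation genes 8 lay below 0, against 51.6% of all genes kept. Eefsec, the selenocysteine elongation factor, was past 1.5-fold at 12.7 with Ascl2 and 21.7 with the empty vector (−0.73). Eef2, the translocation factor, was 2066 with Ascl2 and 2535 with the empty vector (−0.29). In the list of poly(A)-binding proteins, Pabpc4 was 60.4 with Ascl2 and 89.0 with the empty vector (−0.55), and Paip1, which bridges Pabpc1 and eIF4A, was 45.8 with Ascl2 and 31.1 with the empty vector (0.55). Of 22 tRNA synthetase genes and partners 15 lay below 0, with a median of −0.12 and Qars lowest at −0.43. Of 9 mitochondrial factors 4 lay below 0, with Tufm at −0.48 and Tsfm at −0.43, and of 8 termination and recycling genes 4 lay below 0, with Ltn1 at 0.30 and Pelo at −0.28. None of the genes in these last 4 lists reached 1.5-fold, and in the mitochondrial and termination lists the mean lay on the other side of 0 from the median.

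**Figure D4:**
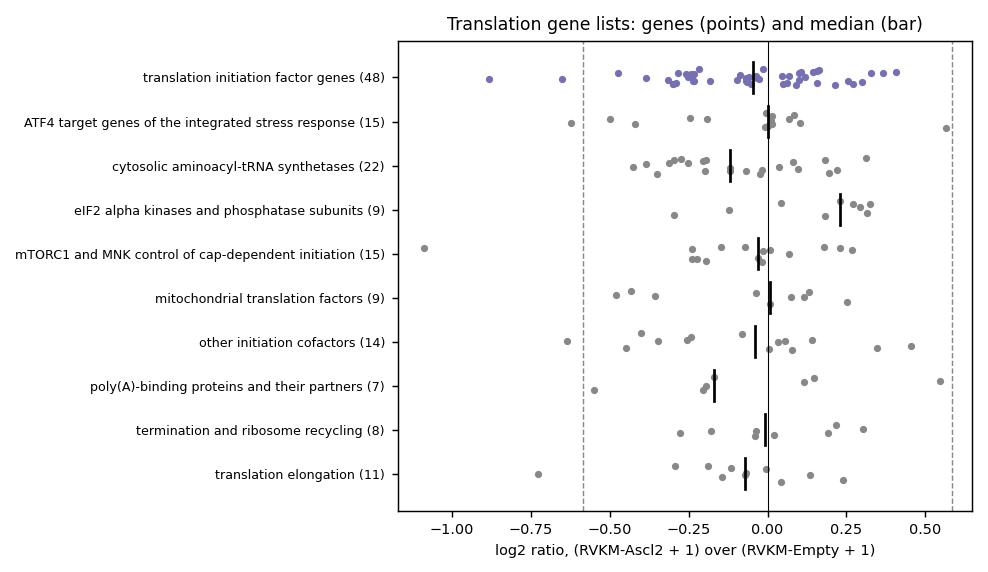
Log2 ratio (RVKM-Ascl2 over RVKM-Empty, pseudocount 1) of the 48 initiation factor genes and of the genes of 9 other translation lists, with a bar at each median and the number of genes in brackets. Medians run from −0.17 (poly(A)-binding proteins) to 0.23 (eIF2 alpha kinases and phosphatase subunits), and Akt1s1 (−1.09) is the lowest point.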

How the data were processed

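The authors deposited 1 signal value per gene for each RNA library, read here as an abundance scaled for depth. No source used here gives its name (FPKM or TPM), the quantifier or the strand setting. The submitters' processing notes name mm10, Trim Galore, Bowtie2, Picard and MACS2 with no role. Of values below 0.5, 511 of 514 (RVKM-Ascl2) and 676 of 682 (RVKM-Empty) were distinct, where whole reads scaled for depth alone would repeat, so levels were read as per length, which no source states. Groups came from the sample titles.

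Log2 ratios used a pseudocount of 1, which understates differences of low genes, and genes reaching 1 in at least 1 library. With 1 library per group, counts past 1.5-fold and 2-fold are given with no test. The members, the lists and their roles were chosen with earlier results of these data known. All members may be named, as may the 4 list genes with the largest absolute ratio and any past 1.5-fold. Of the genes first listed, 2 are not reported here and were left out of the lists. All 48 identifiers matched their symbol. Of genes kept, 94.3% had a genomic span. Promoter sequences are from RefSeq (GRCm38.p6). Steps were tested on simulated data. Python 3.11.15, pandas 2.3.3 and SciPy 1.17.1 were used.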

Additional observations from a re-analysis of the deposited data

How the results depend on the processing

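No initiation factor gene was 1.5-fold higher under any pseudocount, filter, rescaling or trend removal tried. Of the 48, 39 stayed on the same side of the all-gene median in each alternative run. There were 8 runs for Eif3j2 and Eif5a2, which a filter of 5 removes, and 9 for the others. Rescalings move a gene and that median nearly alike, and changes of filter and pseudocount move either little. Most of these runs could thus hardly change a side, and the same share over all genes was not computed. The rescaling without immunoglobulin genes and Pcdh15 gave a members' median of 0.046 (all genes 0.069), 1 gene 1.5-fold lower and 18 below 0, and over all genes 365 lower and 801 higher, by construction, since it raises every RVKM-Ascl2 value; equal sums over all genes gave 581 lower and 572 higher. With the trend with level removed the median was 0.014 with 1 gene lower, and with the trend with genomic span removed 0.0096 with 1 gene lower; the cause was not tested. By construction, a 2-fold threshold left 0 genes lower, and one of 0.32 on the log2 scale gave 4 lower and 3 higher. Over all genes, where the main counts were 530 lower and 615 higher, a pseudocount of 0.1 gave 925 higher, one of 5 gave 191 lower and 253 higher, a filter of 5 gave 353 lower and 379 higher, a 2-fold threshold 88 lower and 188 higher, and that of 0.32 gave 1930 lower and 1739 higher. Leaving out the pseudogene and 4 near-identical copies, chosen after seeing the data, gave a median of −0.059 and 2 genes lower. No paired analysis was possible because each group has 1 library. Depth is unknown, so counting error limits low genes such as Eif3j2 and Eif5a2 by an amount that cannot be given.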

Other observations

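Annotated spans on GRCm38 overlapped another gene for 22 of the 48 genes, a protein-coding one for 11 of them. The same share over all genes was not computed, so the overlap is not read as a trait of these genes. Reads there cannot be assigned without the strand setting. The overlapping gene with the largest difference, chosen after its values were seen, was Ccdc73, whose annotation ends over that of Eif3m on chromosome 2. It was 18.1 with Ascl2 and 4.19 with the empty vector, while Eif3m was 176 with Ascl2 and 181 with the empty vector. Banf1, whose span touches that of Eif1ad on chromosome 19, was 178 with Ascl2 and 234 with the empty vector.

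Across the 48 genes, which are not independent replicates and come from the same 2 libraries, the log2 ratio had a Spearman rho of 0.19 with genomic span and −0.065 with mean level. Over the genes kept the same values were 0.19 (11579 genes with a span) and −0.11 (12283 genes).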
